A study of Mus musculus with 6 samples.

Results

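Experimental autoimmune encephalomyelitis (EAE) is an induced inflammatory disease of the central nervous system, used as a model of multiple sclerosis. Microglia sorted at its peak were compared with microglia from naive mice by RNA sequencing, with 1 library per condition. The genes compared were those with at least 50 counts over both libraries, which came to 14367 of 42303 rows in the count table. These genes held 99.8% of the counts in the naive library and 99.9% in the peak library.

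Both groups were Ccr2rfp/+::Cx3cr1gfp/+ mice on a C57Bl/6 background, so each animal carried 1 reporter allele at Ccr2 and 1 at Cx3cr1, and the counts of these genes come from mice with a single unmodified copy in both groups. EAE was induced with myelin oligodendrocyte glycoprotein peptide, residues 35 to 55, at 24 to 28 weeks of age, and peak was called on the second day on which the daily score had stopped worsening. The age of the naive mice was not given in the sources used here. Each library was made from cells pooled over 30 mice, so the spread between animals cannot be seen. The tissue was described as brain in 1 place and as brain with spinal cord in another. Mononuclear cells from a 30% to 70% Percoll gradient were sorted on F4/80 and CD45, and total RNA depleted of ribosomal RNA was sequenced.

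Microglia are the resident macrophages of the brain and spinal cord. They clear debris and synapses through lysosomes rich in cathepsins, present complement proteins, and depend on signalling through Csf1r and transforming growth factor beta for their survival and resting identity. In inflammation they take up antigen presentation, divide and alter their metabolism. Beside immune genes they express the general machinery of ribosomes, mitochondria, cytoskeleton and lysosomes, and abundant genes and such families are the main subject here.

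With 1 library per condition no difference could be tested against replicate spread. Every ratio below is peak over naive after scaling of the libraries, and every bracketed interval is an exact 95% interval that covers counting error only. Reads were not marked by molecular identifiers, so reads are not independent molecules. The words higher and lower are used for genes past 2-fold, which is a threshold of size and not a test. In cells sorted in bulk, fewer cells of one kind and less RNA per cell cannot be told apart.

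The libraries held 31282093 counts (naive) and 36561934 counts (peak). Of 10 microglial marker genes fixed for the check, 9 had a row, and all 9 were counted in both libraries. Their summed level was 14840 FPKM (fragments scaled to gene length and library total) in naive cells and 9487 at peak, so the microglial label held in both. The genes of the sort were present in both, with Adgre1, which encodes F4/80, at 23894 and 28219 counts (1.07-fold) and Ptprc, which encodes CD45, at 19190 and 34169 (1.62-fold). Markers of other cells were at far lower levels but were not constant. The summed level of 7 choroid plexus markers was 1598 FPKM in naive cells and 404 at peak. That of 8 astrocyte markers was 135 and 61.2, and that of 8 endothelial markers was 32.3 and 15.9. For 8 monocyte markers it was 23.7 and 128, of which Fn1 alone gave 2.23 and 83.9. Of the 7 monocyte markers compared 5 were higher, while F13a1 (16.7 and 17.4 FPKM) and Ccr2 (2.71 and 4.53 FPKM) were not. The summed level of 8 neutrophil markers was 26.7 and 25.8 FPKM, with Elane and Mpo at 0 counts in both libraries. Of these markers 5 were compared, with a median log2 ratio of -0.92 and 2 lower. The summed level of 8 T cell markers was 0.886 and 3.27 FPKM, and that of 6 B cell markers was 15.4 and 10.3 FPKM.

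Promoters of members from opposite parts of the ratio range are shown first, since they carry short sequences whose frequency was not even over that range. Each is the RefSeq promoter on mouse build GRCm38.p6, from 250 bases before to 50 bases after the start of transcription, written 5′ to 3′ on the strand of the gene. Capitals mark the match on whichever strand it lay, and a match describes letters only. The first 3 genes hold the interferon-stimulated response element in a simplified form, GAAANNGAA. Ctss encodes cathepsin S and B2m encodes the light chain of major histocompatibility complex class I, and they were among the genes with the largest gain in counts. Glul encodes glutamine synthetase and was among those with the largest loss. Cenpw, a centromere protein gene, holds the cell cycle homology region TTTGAA. Slc3a2, the heavy chain of amino acid exchangers, had nearly the same level in both libraries and holds CCGGAAG, the core of ETS factor sites.
Ctss, chr3:95526536-95526835, + strand: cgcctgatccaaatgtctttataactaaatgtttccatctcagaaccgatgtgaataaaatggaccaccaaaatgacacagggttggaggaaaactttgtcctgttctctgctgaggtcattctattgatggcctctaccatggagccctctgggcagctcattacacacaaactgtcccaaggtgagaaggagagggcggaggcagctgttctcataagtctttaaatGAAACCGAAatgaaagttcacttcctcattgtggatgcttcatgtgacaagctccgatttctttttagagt
B2m, chr2:122147437-122147736, + strand: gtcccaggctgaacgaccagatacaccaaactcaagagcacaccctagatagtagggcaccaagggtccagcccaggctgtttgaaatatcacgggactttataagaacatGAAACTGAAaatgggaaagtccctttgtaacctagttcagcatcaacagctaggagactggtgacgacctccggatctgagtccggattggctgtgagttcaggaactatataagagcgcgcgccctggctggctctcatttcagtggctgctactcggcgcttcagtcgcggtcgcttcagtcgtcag
Glul, chr1:153899679-153899978, + strand: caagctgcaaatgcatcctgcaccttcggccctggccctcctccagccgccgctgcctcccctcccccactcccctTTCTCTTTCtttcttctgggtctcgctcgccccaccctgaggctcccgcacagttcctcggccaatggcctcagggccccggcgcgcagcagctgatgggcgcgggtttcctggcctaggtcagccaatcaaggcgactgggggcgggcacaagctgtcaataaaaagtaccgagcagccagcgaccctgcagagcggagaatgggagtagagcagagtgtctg
Cenpw, chr10:30200491-30200790, - strand: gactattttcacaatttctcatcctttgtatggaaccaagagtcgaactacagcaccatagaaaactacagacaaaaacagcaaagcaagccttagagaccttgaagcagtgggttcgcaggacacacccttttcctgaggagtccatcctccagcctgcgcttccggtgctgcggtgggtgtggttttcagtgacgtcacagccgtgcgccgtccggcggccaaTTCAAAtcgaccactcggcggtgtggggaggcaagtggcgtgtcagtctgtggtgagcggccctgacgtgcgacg
Slc3a2, chr19:8713848-8714147, - strand: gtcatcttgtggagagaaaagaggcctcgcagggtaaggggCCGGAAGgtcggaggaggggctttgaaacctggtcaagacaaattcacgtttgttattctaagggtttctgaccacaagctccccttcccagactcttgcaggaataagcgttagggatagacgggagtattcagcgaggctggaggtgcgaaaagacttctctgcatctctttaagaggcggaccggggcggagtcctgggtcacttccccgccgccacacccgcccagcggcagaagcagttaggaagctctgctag
The matches began 21, 139, 174, 25 and 209 bases before the start sites, in that order. Among the genes with the largest gain, 3 of the 10 that had a promoter in the RefSeq table held GAAANNGAA, and among those with the largest loss 1 of 9 did. Of the 3 centromere protein genes with the highest ratios that had a promoter, 1 held TTTGAA, and of 9 abundant genes with ratios nearest 1, 3 held CCGGAAG.

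Across all compared genes, 9869 had at least 1 promoter in the table, giving 12635 promoters, and both strands were searched. GAAANNGAA was found in 7.46% of these promoters, and in 8.56% of all 32851 promoters of the table. By class of ratio it was found in 6.78% of promoters of genes at least 4-fold lower, 7.71% of those 2-fold to 4-fold lower, 6.63% of those within 2-fold, 10.8% of those 2-fold to 4-fold higher, 18% of those 4-fold to 8-fold higher and 17.3% of those at least 8-fold higher. TTTGAA was found in 12.1% of promoters of compared genes and in 17.9% of all promoters of the table. By class it was found in 20.3% of the 59 promoters of genes at least 4-fold lower and in 10.4% of the 1181 of genes 2-fold to 4-fold lower. Within 2-fold the share was 11.3%. It was 14.6% in genes 2-fold to 4-fold higher, 21.5% in genes 4-fold to 8-fold higher and 27.5% in genes at least 8-fold higher. The ETS core was found in 17.1% of promoters of compared genes and in 8.86% of all promoters of the table. It was most frequent in the middle of the range, at 19.5% in genes within 2-fold. The shares of 2.96% in genes 2-fold to 4-fold lower and 12.2% in genes at least 8-fold higher were below that of compared genes. Genes within 2-fold therefore had the ETS core more often than genes at either side. They also had the most CpG dinucleotides, with a median of 21 per promoter against 14 in genes 2-fold to 4-fold lower and 12 in genes at least 8-fold higher. Promoters of 1 gene can overlap, so they were not independent, and no test was made.

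**Figure D1:**
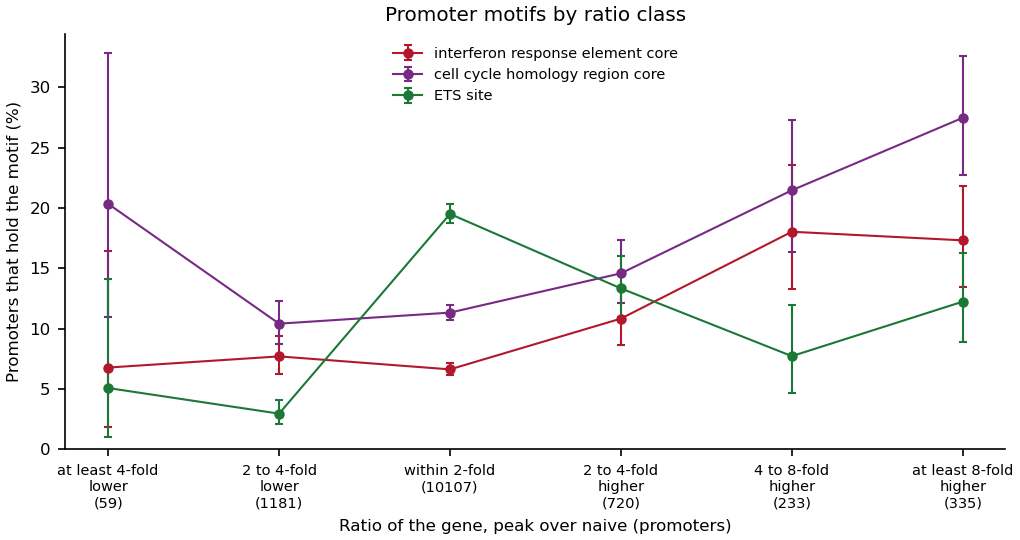
Share of promoters (percent, vertical axis) that hold a given short sequence in each class of peak to naive ratio (horizontal axis, from at least 4-fold lower to at least 8-fold higher, with the number of promoters). Bars are exact 95% binomial intervals over promoters. The interferon response element climbs from 6.63% within 2-fold to 18% at 4-fold to 8-fold higher, while the ETS core is most frequent within 2-fold, at 19.5%.

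Most genes were within 2-fold, which is a limit of size and does not mean an unchanged level. Of the 14367 genes, 11357 (79.0%) were within 2-fold and 5677 (39.5%) within 1.25-fold, and the middle 50% of log2 ratios lay between -0.41 and 0.45. At least 2-fold higher were 1666 genes, which is 11.6% of those compared, and at least 2-fold lower were 1344, which is 9.35%. Which side held more genes depended on the scaling, with 1495 higher and 1550 lower with library totals, 1505 and 1561 with ratios of FPKM values, and 1432 and 1686 with upper quartile scaling. The tails had different shapes. The upper one was long, with 945 genes at 2-fold to 4-fold, 294 at 4-fold to 8-fold and 427 (2.97%) at 8-fold or more, and the 99th percentile of the log2 ratio was 4.65. The lower one was short, with 1262 genes at 2-fold to 4-fold and 82 (0.571%) at 4-fold or more, and the 1st percentile was -1.87. Counting error alone left 9692 genes with an interval wholly within 2-fold, 1269 wholly above it and 616 wholly below it. Only 3029 genes had an interval wholly within 1.25-fold, and 10854 had one wholly above or wholly below 1.

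**Figure D2:**
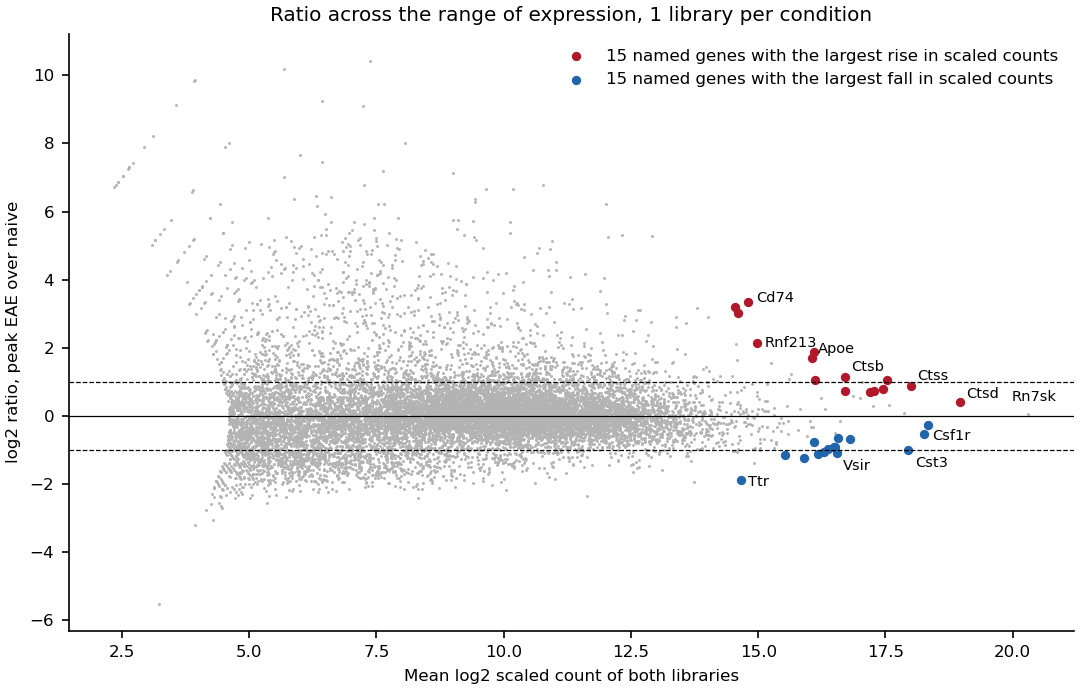
Each point is a gene, with the mean log2 scaled count of both libraries on the horizontal axis and log2 of the peak to naive ratio on the vertical axis, and the 15 largest gains (red) and 15 largest losses (blue) in scaled counts marked. The cloud is centred on 0 and narrows with level, and it reaches farther above (99th percentile 4.65) than below (1st percentile -1.87).

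In terms of RNA rather than of genes, the tails also differed. Higher genes held 4.64% of naive counts and 14.7% of peak counts. Lower genes held 6.96% of naive counts and 2.85% of peak counts. The 427 genes at 8-fold or more, which head any list sorted by ratio, went from 0.240% to 3.32% of counts, so most of the gain in RNA lay in genes with smaller ratios. The 15 genes with the largest gain in scaled counts made up 19.6% of the summed gain, and the 15 with the largest loss made up 20.7% of the summed loss.

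When genes were ordered by mean level and divided into 10 bins of equal size, the ratios were widest among the least expressed. In the lowest bin 19% of genes were higher and 22.9% lower, and the middle 50% spanned 1.54 on the log2 scale. In the highest bin 7.94% were higher and 3.48% lower, and that span was 0.74. Counting error changed in the same direction, since the median width of the counting interval was 1.57 on the log2 scale in the lowest bin and 0.095 in the highest. Names of predicted or noncoding genes made up 46.8% of the lowest bin and 2.86% of the highest. Lower genes thinned out faster with level than higher ones, from 22.9% in the lowest bin to 1.74% in the ninth.

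**Figure D3:**
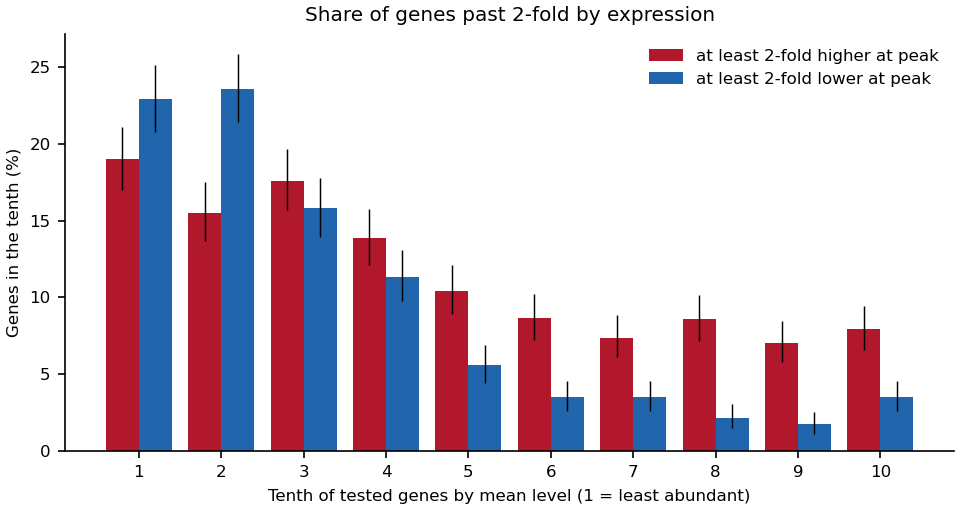
Percent of genes past 2-fold upward and downward at peak (vertical axis) in 10 bins of mean level, from the least to the most expressed (horizontal axis), with exact 95% binomial intervals over genes as vertical lines. Upward shares go from 19% in the first bin to 7.94% in the last, and downward shares from 22.9% to 3.48%.

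The order used decides part of this pattern. Ordered by the naive level alone, the lowest bin had 39.0% higher and 5.29% lower. Ordered by the peak level alone it had 2.23% higher and 38.7% lower. A gene that is low in the library used for the order is more often higher in the other, by construction. By mean level per length, the lowest bin had 11.7% higher and 34.6% lower, and the highest had 19.4% higher and 3.41% lower.

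The most abundant RNAs were largely the same in both libraries. The 10 most abundant genes held 11.8% of naive and 12% of peak counts, with 7 in common, and the 100 most abundant held 28.7% and 28.5%, with 74 in common. It took 607 genes in naive cells and 647 at peak to hold 50% of the counts. Among the 1000 genes with the highest mean count, 77 were higher and 43 lower, 19 were past 4-fold upward and 0 past 4-fold downward, by ratio alone. No counted row was placed on chromosome X or Y or had a mitochondrial symbol, so ranks and shares are among the other genes. Among these the most abundant RNA was Rn7sk, at 1265614 and 1449663 counts (1.04-fold). Rn7sk is a small nuclear RNA that holds the elongation factor P-TEFb inactive. Rpph1, the RNA of ribonuclease P, had 175978 and 238720 counts (1.23-fold). Rmrp, the related RNA that processes ribosomal RNA precursors, had 137691 and 259418 (1.71-fold).

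The largest gains in RNA included lysosomal and lipid-handling genes already abundant in naive cells. Ctss, an endopeptidase that trims the invariant chain, had 193936 naive and 388114 peak counts, a ratio of 1.82 [1.81, 1.83]. Psap, the precursor of the saposins that assist sphingolipid breakdown, had 131851 and 299128 (2.06 [2.05, 2.08]). Ctsb, a cysteine cathepsin, had 72385 and 174121 (2.19 [2.17, 2.21]). All 3 were among the 15 largest gains, although the first did not reach 2-fold. Ctsd, the main aspartic protease of lysosomes, had 446211 and 648107 counts, a ratio of 1.32. Grn, which encodes the lysosomal protein progranulin, had 49399 and 112372 (2.07 [2.05, 2.09]). Apoe, the lipid carrier of the brain, had 37443 and 134651 (3.27 [3.24, 3.31]).

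Further genes with the largest gains belonged to antigen presentation, complement and the cytoskeleton. B2m had 36349 and 146546 counts (3.67 [3.63, 3.71]). Cd74, the invariant chain of class II molecules, had 8943 and 99859 (10.2 [9.94, 10.4]). H2-K1 and H2-D1, class I heavy chains whose reads can be shared with near-identical relatives, had ratios of 9.18 and 8.12. C1qa, a chain of the complement starter C1q, had 118027 and 209876 counts (1.62 [1.61, 1.63]), and its partner C1qb had a ratio of 1.48. Actb, cytoplasmic beta actin, had 123913 and 225356 (1.65 [1.64, 1.67]). Rnf213, a very large ubiquitin ligase, had 15247 and 74459 (4.44 [4.37, 4.52]). The 15 genes with the largest gain thus held both modest ratios at very high levels and large ratios at moderate levels.

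The largest losses were mostly in genes that mark resting microglia. Cst3, the secreted cathepsin inhibitor cystatin C, had 360614 naive and 195967 peak counts, which is 2.02-fold lower [2.01, 2.03]. Per length it went from 9106 to 4234 FPKM while Ctss went from 4565 to 7817. The order of Cst3 and Ctss RNA was therefore reversed between the libraries. Ctsb, at 488 and 1005 FPKM, was below Cst3 in both. Csf1r, the receptor for colony stimulating factor 1, went from 376787 to 284975 counts (1.45-fold lower).

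Several surface molecules were near 2-fold lower. Vsir, an inhibitory receptor of the B7 family, had 139310 and 71620 counts (2.14-fold lower [2.12, 2.16]). Selplg, the ligand of P-selectin, had 108856 and 54948 (2.18-fold lower [2.15, 2.20]). Fcrls, a scavenger receptor of microglia, had 93243 and 43797 (2.34-fold lower [2.31, 2.37]). Tmem119 and the fractalkine receptor gene Cx3cr1 were 1.88-fold and 1.90-fold lower, and P2ry12, a receptor for adenosine diphosphate, was 2.09-fold lower. Tgfbr1, the type I receptor of transforming growth factor beta, was 1.96-fold lower and Sirpa, which binds CD47, was 1.59-fold lower. Genes this near to 2-fold can cross it with the scaling. With upper quartile scaling Tmem119, Cx3cr1 and Tgfbr1 passed 2-fold, and Psap, Ctsb and Grn did not. Glul, which turns glutamate into glutamine, had 70943 and 34979 (2.23-fold lower [2.20, 2.26]).

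Ttr, the transport protein of thyroid hormone and retinol, is a transcript of the choroid plexus and stood apart among the largest losses. It had 50176 and 14926 counts (3.69-fold lower [3.63, 3.76]). Enpp2, which makes lysophosphatidic acid, had 26905 and 7739 (3.82-fold lower [3.72, 3.92]), the lowest ratio among the 1000 most abundant genes. Kl, which encodes the coreceptor klotho, had 1769 and 480 (4.05-fold lower). All 3 are known from choroid plexus epithelium, and all 7 markers of that tissue were lower, with a median log2 ratio of -1.98. The part of such tissue in these losses was not tested.

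Other abundant genes with the lowest ratios are not choroid plexus markers. Csmd3, a complement control protein domain gene, had 15220 and 5582 counts (3.0-fold lower [2.91, 3.09]). Itga9, the alpha 9 integrin chain, had 10512 and 3676 (3.14-fold lower [3.03, 3.26]). Hpgd, which inactivates prostaglandins, had 10792 and 4217 (2.81-fold lower [2.71, 2.91]). Slc40a1, the iron exporter ferroportin, had 9627 and 4001 (2.64-fold lower [2.55, 2.74]). Abca9, a lipid transporter of the ABC family, had 49653 and 20948 (2.60-fold lower [2.56, 2.65]), and Plxna4, a semaphorin receptor, had 9618 and 3879 (2.72-fold lower [2.62, 2.83]). Fscn1, an actin bundling protein, was 2.76-fold lower [2.67, 2.86].

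At the other end of the 1000 most abundant genes, Fn1, which encodes fibronectin, had 816 and 35840 counts (40.0-fold [37.3, 42.9]) and C4b, complement component 4, had 1229 and 52725 (39.0-fold [36.9, 41.3]). Fn1 was also one of the monocyte markers used for the check, 5 of whose 7 compared members were higher, and the part of monocytes in its ratio was not tested. Lgals3bp, a secreted galectin-binding protein, had 3901 and 32297 (7.53-fold [7.29, 7.79]), and Ifi30, a lysosomal thiol reductase, had 2337 and 17955 (6.99-fold [6.70, 7.30]). Genes with ratios closest to 1 at this level included Ubr4, a ubiquitin ligase of the N-degron pathway, at 15188 and 16678 counts, Slc3a2 at 10575 and 11681, and Brd2, a bromodomain reader of acetylated histones, at 9011 and 9966.

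In each bin of level the gene with the lowest ratio was recorded, so that losses outside the abundant range are visible. From the lowest bin up, these included Oca2 (46 and 5 counts), Slit2 (121 and 25), Sostdc1 (203 and 47), F5 (670 and 165), Lyve1 (884 and 223), Kl, Mycl (2252 and 549), Sema4b (3094 and 868) and Ddit4 (4287 and 1462). Mycl, a member of the MYC family of transcription factors, was 4.51-fold lower [4.10, 4.96]. Lyve1 is a hyaluronan receptor of lymphatic endothelium and of macrophages at brain borders. Sema4b is a guidance ligand and was 3.92-fold lower [3.63, 4.23], and Ddit4, an inhibitor of mTOR signalling induced by stress, was 3.22-fold lower [3.04, 3.42].

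Families were then read as lists, of which 113 could be described, over 6467 genes. Of all compared genes 11.6% were higher and 9.35% lower, and counts of members past 2-fold are to be read against these shares. The median log2 ratio of all compared genes was -0.0027, and the list medians were read against it. Above it lay 56 lists and below it 57, with 14 lists more than 0.5 above and 15 more than 0.5 below. Other scalings shifted every ratio by a constant, which put the median of all genes at -0.14 with upper quartile scaling and at -0.09 with library totals, and left the distance of each list from it in place. Members of a list can share sequence and reads, so the counts are descriptions.

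**Figure D4:**
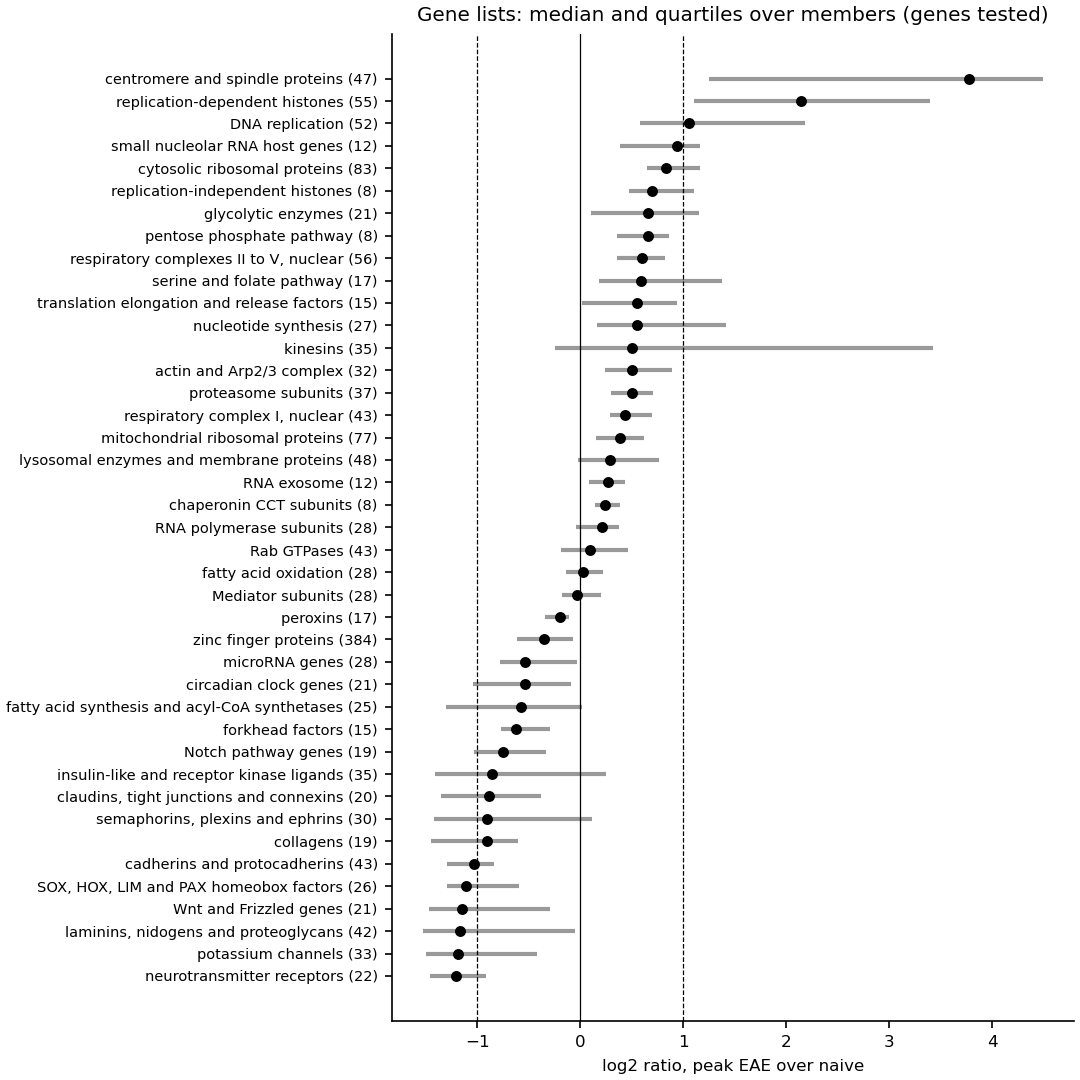
Median log2 ratio (point) and middle 50% of members (line) for a selection of the gene families, ordered by median, with the number of genes compared in brackets. The solid vertical line marks equal levels and the dashed lines mark 2-fold. Cell division and histone families sit at the top, ribosomal proteins and respiratory subunits above 0, and matrix, adhesion, channel and developmental signalling families below 0.

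The lists of genes that make proteins had medians above that of all genes, mostly with few members past 2-fold. Of the 83 cytosolic ribosomal protein genes compared (of 86 rows), 32 were at least 2-fold higher and 0 lower by ratio (11.6% of all genes were higher), 81 had ratios above 1, and the median log2 ratio was 0.83. Their summed counts were 97419 in naive cells and 214423 at peak, from 0.311% to 0.586% of all counts and 2.0-fold after scaling. Rpl8 had 6459 and 16024 counts (2.26 [2.19, 2.32]), Rpl41 had 2926 and 10031 (3.12 [2.99, 3.25]) and Rplp1, a stalk protein, had 6067 and 11199 (1.68 [1.63, 1.73]). These genes have many processed pseudogenes, among which reads can be split, so single members are uncertain.

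The rest of the translation apparatus showed the same sign. Elongation and release factors had a median of 0.55 with 3 of 15 higher, among them Eef1a1, which brings transfer RNA to the ribosome, at 34002 and 79521 counts (2.13 [2.10, 2.16]). Eef2, the translocase, had 26573 and 55998 (1.92 [1.89, 1.95]). Initiation factors had a median of 0.36 with 3 of 50 higher, the highest being Eif2ak2, the interferon-induced kinase that stops initiation, with 1717 and 6690 counts. Aminoacyl transfer RNA synthetases had a median of 0.40 with 3 of 38 higher, led by Gars at 2137 and 6118 (2.61 [2.48, 2.74]). Ribosome biogenesis factors had a median of 0.33 with 3 of 55 higher, led by Npm1, a nucleolar chaperone, at 879 and 2630 (2.72 [2.52, 2.94]). Mitochondrial ribosomal proteins had a median of 0.39 with 1 of 77 higher. None of these 5 lists had a member 2-fold lower, and in all but the elongation and release factors the share of higher members was below the 11.6% of all genes, so the shift was in the medians.

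Transcripts that carry small nucleolar RNAs in their introns followed the ribosomal proteins. All 12 host genes compared had ratios above 1, 4 were higher, and the median was 0.94. Gas5 had 1906 and 4078 counts (1.95 [1.84, 2.06]) and Zfas1 had 734 and 1786 (2.21 [2.03, 2.42]). The small nucleolar RNAs themselves had a median of 0.40 with 9 of 46 higher, yet their summed counts were 0.959-fold. The abundant Snord17 had 9613 and 6357 counts (1.66-fold lower), and Snora73b had 2808 and 6643 (2.15-fold). Splicing genes had a median of 0.37 with 5 of 67 higher, a share below the 11.6% of all genes. RNA polymerase subunits (median 0.21, 28 genes), the RNA exosome (0.27, 12 genes) and Mediator (-0.03, 28 genes) had no member past 2-fold.

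Protein folding and breakdown did not move as one. The 24 heat shock protein genes had a median of -0.28, with 0 higher and 4 lower by ratio. Hspa5, the chaperone of the endoplasmic reticulum, had 51956 and 51543 counts, Hsp90ab1 had 28457 and 31627, and Hsph1, a nucleotide exchange factor for Hsp70, had 4842 and 2300 (2.31-fold lower [2.20, 2.43]). The 8 subunits of the CCT chaperonin, which folds actin and tubulin, lay between 0.05 and 0.73 with a median of 0.24. Proteasome subunits had a median of 0.50 with 36 of 37 above 1 and 4 of 37 higher, a share near the 11.6% of all genes. The 3 subunits of the immunoproteasome were the highest, Psmb9 at 995 and 5346 counts (4.89 [4.57, 5.24]), Psmb8 at 2696 and 10896 (3.68 [3.53, 3.84]) and Psmb10 at 2162 and 5791 (2.44 [2.32, 2.56]). The constitutive subunits they replace had smaller ratios in the same direction, with Psmb6 at 2.11, Psmb5 at 1.84 and Psmb7 at 1.57.

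Lysosomal genes took 5.90% of all counts in naive cells and 7.58% at peak, a summed ratio of 1.37. Of 48 genes, 9 were higher and 1 lower, with a median of 0.29, so the gain lay in some members only. Ctsz, a carboxypeptidase, had 33370 and 86338 counts (2.35 [2.32, 2.38]), Ctsc, which activates serine proteases, had 22596 and 73203 (2.95 [2.90, 2.99]) and Galns, a sulfatase, had 691 and 2737 (3.6 [3.31, 3.92]). Acp5, tartrate-resistant acid phosphatase of osteoclasts, had 16 and 296 (16.8 [10.2, 29.8]). The vacuolar proton pump that acidifies the lysosome had a median of 0.33 over 17 genes, with 1 higher, a share below the 11.6% of all genes.

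Respiratory chain lists had medians above that of all genes, by less than 2-fold. The 43 nuclear genes of respiratory complex I had a median of 0.43, ran from -0.26 to 0.93, and none passed 2-fold. Complexes II to V had a median of 0.59 with 8 of 56 higher and 0 lower by ratio, against 11.6% and 9.35% of all genes. Cox8a and Cox6b1, small subunits of cytochrome oxidase, had 1583 and 4332 counts (2.49 [2.35, 2.64]) and 1516 and 3557 (2.14 [2.01, 2.27]). Cox6a2, the form of a regulatory subunit known from heart and skeletal muscle, had 25 and 911 (33.2 [22.3, 51.5]), far from the rest of its family. The list of tricarboxylic acid cycle genes, which also holds regulators of the entry of pyruvate, had a median of 0.27 with 0 of 27 higher. Lower were 2, a share below the 9.35% of all genes. The lower ones were such regulators and not cycle enzymes, the pyruvate dehydrogenase kinases Pdk4 (71 and 28 counts) and Pdk2 (324 and 149).

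Glycolytic genes differed by isoform. Over 21 glycolytic genes the median was 0.66, with 8 higher and 1 lower, and the summed counts went from 77009 to 147016 (1.74-fold). Aldoa, the ubiquitous aldolase, had 9066 and 22140 counts (2.22 [2.17, 2.28]), while Aldoc, the aldolase of brain and of astrocytes, had 2589 and 1333 (2.13-fold lower [2.0, 2.28]). The 8 compared genes of the pentose phosphate pathway had a similar median of 0.66, and none of them was past 2-fold. Tkt, transketolase, had 4947 and 10532 (1.94 [1.87, 2.0]). Genes on chromosome X are in neither list, so neither G6pdx nor Pgk1 was compared. The transporters of sugar differed, since Slc2a5, the fructose transporter that marks microglia, had 20702 and 9150 counts (2.49-fold lower [2.43, 2.55]) and Slc2a6 had 141 and 4704 (30.4-fold [25.7, 36.2]).

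Pathways that supply building blocks split by product. Genes of serine and folate metabolism had a median of 0.59 with 7 of 17 higher, among them Mthfd2, a mitochondrial folate enzyme, at 303 and 1875 counts (5.63 [4.98, 6.38]) and Shmt2 at 593 and 2040 (3.13 [2.86, 3.44]). Nucleotide synthesis had a median of 0.55 with 10 of 27 higher, led by Rrm2, the S-phase subunit of ribonucleotide reductase, at 29 and 1220. Genes of fatty acid synthesis and activation had a median of -0.58 with 0 of 25 higher and 9 lower, and its distance from the median of all genes was -0.40 both with a minimum of 200 counts and after centring by gene length. Scd2, a desaturase, had 6750 and 3950 counts (1.88-fold lower [1.81, 1.95]) and Acsl6, an acyl-CoA synthetase, had 1292 and 473 (3.0-fold lower [2.70, 3.34]), while Acsl5 had 4556 and 8069 (1.61-fold). Genes of fatty acid oxidation had a median of 0.03 and no member of 28 past 2-fold.

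Antioxidant genes were higher in part. Over 44 genes of glutathione and thioredoxin metabolism the median was 0.35, with 10 higher and 3 lower, against 11.6% and 9.35% of all genes. Txn1, thioredoxin, had 480 and 3490 counts (6.62 [6.01, 7.29]) and Prdx5, a peroxidase, had 1681 and 7392 (4.0 [3.79, 4.22]). Gpx1, the abundant glutathione peroxidase, had 4595 and 9718 (1.92 [1.86, 1.99]). The 17 peroxins, which build peroxisomes, had a median of -0.20 and none past 2-fold.

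The cytoskeleton showed differences among the tubulins. Of 19 genes of tubulins and of the gamma-tubulin complex, 4 were higher and 1 lower. Tubb5, the main beta tubulin, had 9751 and 29035 counts (2.71 [2.65, 2.77]), Tubb6 had 297 and 1118 (3.43 [3.01, 3.91]) and Tuba1c had 267 and 1237 (4.22 [3.69, 4.83]). Tuba1a, the alpha tubulin of neurons and glia, had 4052 and 2122 (2.10-fold lower [1.99, 2.21]). Tuba1a and Tuba1b are close relatives, so reads can be shared between them. Actin and its regulators had a median of 0.50 with 5 of 32 higher, against 11.6% of all genes. The higher ones included Cfl1, the actin severing factor cofilin, at 5045 and 13296 (2.40 [2.32, 2.48]) and Capg, a capping protein, at 784 and 5798 (6.73 [6.24, 7.26]).

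Some abundant signalling genes were below their naive level. Dock8, an exchange factor for Cdc42, had 24430 and 15496 counts (1.73-fold lower [1.70, 1.77]). Rhob, an endosomal small GTPase and early response gene, had 56054 and 32060 (1.92-fold lower [1.90, 1.95]), while Rac1 and Cdc42 stayed near 1, at 11670 and 13146 counts and at 16624 and 19651. Dusp6, the phosphatase of ERK kinases, had 24714 and 15984 (1.70-fold lower [1.67, 1.73]), and the summed counts of the 18 dual specificity phosphatases were 0.694-fold although their median was 0.07.

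Receptor and ligand families of development were lower in many members, at low levels. Wnt and Frizzled genes had a median of -1.15 with 0 of 21 higher and 12 lower, but was -0.36 from the median of all genes with a minimum of 200 counts. Notch genes had a median of -0.75 with 0 of 19 higher and 7 lower, including Numb, a Notch antagonist, at 10177 and 5556 counts (2.01-fold lower [1.95, 2.08]) and Notch4 at 2734 and 1397 (2.15-fold lower [2.02, 2.30]). Semaphorins, plexins and ephrins had a median of -0.90 with 15 of 30 lower and 4 higher, while their summed counts were 0.921-fold. With a minimum of 200 counts that list was -0.34 from the median of all genes. Plxnb2, the member with the highest level per length, had 46675 and 44283 counts. Among growth factor genes (35, with 6 higher and 15 lower), Hgf had 194 and 1655 counts (7.76 [6.69, 9.05]) and its receptor Met had 18 and 360 (18.2 [11.4, 31.1]), while Igf1r had 2170 and 949 (2.51-fold lower [2.33, 2.71]) and Igf2r had 459 and 4325 (8.57 [7.79, 9.46]).

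Channels, receptors of transmitters, matrix and adhesion genes had some of the lowest medians. Potassium channels had a median of -1.19 with 19 of 33 lower and 4 higher, whereas Kcnk6, the channel with the highest level per length, had 18950 and 15576 counts (1.34-fold lower). Transmitter receptors had a median of -1.21 with 0 of 22 higher and 15 lower. Collagens had a median of -0.91 and summed counts 2.12-fold lower, with Col27a1 at 10881 and 5341 (2.24-fold lower [2.17, 2.31]). Laminins and proteoglycans had a median of -1.16 with 25 of 42 lower, including Sparcl1, known from astrocytes, at 7031 and 2848 (2.71-fold lower), against Sdc3, a cell surface proteoglycan, at 2276 and 12861 (5.14 [4.92, 5.38]). Sparc, a matrix protein of resting microglia, had 77662 and 56936 (1.5-fold lower). Cadherins had a median of -1.03 with 24 of 43 lower and 1 higher.

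These families are rich in genes of astrocytes, endothelium, fibroblasts and choroid plexus, and the marker lists of those cells were lower as well. Of 8 astrocyte markers 6 were lower (median -1.38) and 1 higher, Gfap at 89 and 258 counts. Of 8 endothelial markers 6 were lower (median -1.10), while Kdr had 819 and 1050 counts. Of 5 compared fibroblast and pericyte markers 4 were lower (summed level 20.2 and 6.76 FPKM). Erythroid markers were also lower in 4 of 4 (213 and 58.7 FPKM). Of 6 neuronal markers none passed 2-fold (2.34 and 2.20 FPKM). Oligodendrocyte markers were level in sum (38.4 and 39.0 FPKM), although 2 of 7 were lower and their median was -0.53. The part of these cells in the low medians was not tested.

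Transcription factor families mostly lay below the median of all genes. The 384 zinc finger genes had a median of -0.35, with 75 above 1 and 6 higher. The 31 that were lower were a smaller share than the 9.35% of all genes, and among them Zbtb16 had 701 and 175 counts (4.40-fold lower [3.72, 5.23]). Homeobox and SOX factors had a median of -1.11 with 0 of 26 higher and 14 lower. Among them, Zfhx3 had 18031 and 9318 counts (2.13-fold lower [2.07, 2.18]) and Sox4 had 4311 and 1773 (2.67-fold lower [2.53, 2.83]). Krueppel-like and SP factors had a median of -0.38 with 0 of 16 higher and 3 lower. Klf9, a glucocorticoid-responsive factor, had 478 and 168 counts (3.13-fold lower [2.62, 3.75]), and Klf6 had 12532 and 14748 (1.07-fold).

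Clock genes had a median of -0.54, with 1 of 21 higher and 6 lower. Nr1d1, the repressor REV-ERB alpha, had 608 and 158 counts (4.23-fold lower [3.54, 5.07]) and Bhlhe40, another repressor of clock output, had 184 and 1231 (6.09 [5.21, 7.15]). The hour at which mice were killed was not given in the sources used here, and time of day and disease cannot be told apart for these genes. Histone demethylases had a median of -0.27, and 18 of 19 had ratios below 1 although only Kdm5b passed 2-fold, at 3723 and 1770 counts (2.31-fold lower [2.18, 2.45]).

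Genes of cell division had the highest medians of the 113 lists. Centromere and spindle genes had a median of 3.78 with 38 of 47 higher and 0 lower by ratio, including Bub1, a spindle checkpoint kinase, at 21 and 1181 counts (51.2 [33.3, 83]). Cenpw, whose promoter is printed above, had 1 and 89 counts (81.0 [14.2, 3234]), so its ratio is barely bounded from above. Replication-dependent histones had a median of 2.14 with 42 of 55 higher and 1 lower. Members of that family differed, as Hist1h3c had 39 and 1573 counts (36.7 [26.7, 51.8]) while Hist1h4d, the member with the highest level per length, had 2945 and 6082 (1.88 [1.80, 1.96]). DNA replication genes had a median of 1.05 with 27 of 52 higher, and Mcm3, a subunit of the replicative helicase, had 1824 and 4184 (2.09 [1.98, 2.21]). Histone messages mostly lack a poly(A) tail, and total RNA was sequenced here. Similar sequences within the histone family can share reads.

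Gene length ran through many of these families. The length used was the exon length of the gene recovered from counts and FPKM values, which need not equal that of a transcript. When all compared genes were ordered by it and divided into 10 bins, the median log2 ratio went from 0.39 in the shortest (48 to 1027 bases) to -0.24 in the longest (8660 to 84395 bases), and it declined or held at each step between. In the shortest bin 23.4% of genes were higher and 5.57% lower, and in the longest 5.22% were higher and 15.5% lower. Among 7580 genes with ordinary names and at least 1000 counts the medians went from 0.83 to -0.16, and from 0.79 to -0.16 without the cytosolic ribosomal proteins. The median length was 2320 bases in genes 2-fold to 4-fold higher and 4454.5 in genes 2-fold to 4-fold lower, against 3584 in all.

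**Figure D5:**
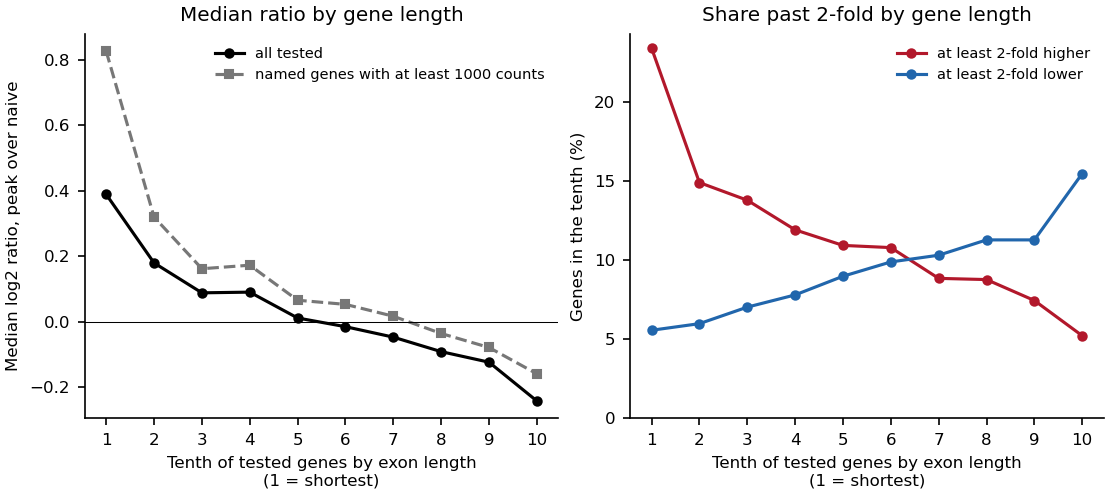
Both panels have 10 bins of gene exon length on the horizontal axis, from the shortest to the longest. Median log2 ratio is on the left (all compared genes, and named genes with at least 1000 counts) and percent of genes past 2-fold is on the right. The medians go from 0.39 to -0.24 and from 0.83 to -0.16, and the upward share goes from 23.4% to 5.22%.

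Lists of short genes were therefore also read after the median of genes of like length had been taken from each ratio, a step chosen after seeing the data. The median of cytosolic ribosomal proteins (median length 1444 bases) went from 0.83 to 0.68, that of mitochondrial ribosomal proteins from 0.39 to 0.24, that of complex I from 0.43 to 0.34 and that of complexes II to V from 0.59 to 0.50. The median of small nucleolar RNAs went from 0.40 to 0.01. That of glycolytic genes, which are not short, went from 0.66 to 0.75. Differences between libraries in RNA length, fragmentation or recovery would move with transcript length, which was not measured here. Their part in the result was not tested.

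Neighbouring genes that moved together were sought along the chromosomes of build GRCm38.p6, as runs of at least 4 compared neighbours all past 2-fold on 1 side. There were 24 runs of higher genes and 5 of lower genes. The longest was 9 interferon-inducible genes from Ifi206 to Ifi211 at chr1:173468485-173913087, with a median log2 ratio of 3.46. Runs of lower genes included the zinc finger genes Zfp354c, Zfp879, Zfp454, Zfp2 and Zfp354b at chr11:50811085-50931661 (median -1.29) and the group of Fam20a, Abca8a, Abca9 and Abca6 at chr11:109669746-110251776 (median -1.37). Members of these runs share sequence in several cases, and reads of relatives can be shared.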

How the data were processed

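The members and the gene lists were chosen with earlier results of these data known. The authors deposited 1 table with raw counts per gene and FPKM values per gene for the naive and the peak library, per the file headers. FPKM values were the deposited counts divided by gene length and library total, from which gene lengths were recovered. The submitters' processing notes name Bowtie2, TopHat, featureCounts, edgeR and mouse build mm10. The sources used here give neither their roles and versions nor the use of strand in counting, so overlapping and antisense genes cannot be told apart.

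Counts were scaled by trimmed mean of M values (TMM, edgeR 4.0.16, R 4.3.3) over genes with at least 50 counts, and 0.5 was added to each count for log2 ratios. Intervals are exact Clopper-Pearson 95% intervals (scipy 1.17.1), and they cover counting error only. The script was tested on simulated data. Library totals, upper quartile, DESeq2 1.42.0 size factors, other minimums and other pseudocounts were alternatives, and centring by length was added after seeing the data. Chromosomes X and Y and the mitochondrial genome are not analysed here. No counted row was placed on X or Y or had a mitochondrial symbol. Library totals, ranks, shares of all counts and family lists therefore leave those genes out. A symbol was missing from 506 rows, of which 62 were compared. Promoters came from RefSeq on GRCm38.p6.

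Genes were named by rule. These were the 15 largest gains and 15 largest losses in scaled counts, the 10 with the highest FPKM in each library, the extremes of each of 10 bins of level, and up to 4 extreme and 3 abundant members of each list. Genes of the sort, small families in full, and the 10 highest, 10 lowest and 10 nearest 1 among the 1000 most abundant were also named. A few genes named by this rule are not reported here. The 4 methylation libraries of the series were not used here.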

Additional observations from a re-analysis of the deposited data

How the results depend on the processing

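No paired analysis was possible because each condition had 1 RNA-seq library. The number of higher genes was 4212 with no minimum count, and lay between 1269 and 2227 under the other alternatives. The number of lower genes was 2137 with a minimum of 10 counts, 696 with a minimum of 200, 3835 with no minimum and 616 when the whole counting interval had to pass 2-fold, with 1550, 1561 and 1686 under library totals, FPKM ratios and upper quartile scaling, where lower genes outnumbered higher ones. Minimums and the interval rule change how many genes are compared, or how much counting error is allowed, by construction. The median log2 ratio of all genes was -0.0916 with library totals, -0.0913 with FPKM ratios, -0.14 with upper quartile scaling, -0.0276 with a minimum of 10 counts, 0.0385 with a minimum of 200 and -0.0459 with none.

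In the lowest of 10 bins of level, the share of higher genes was 39.0% ordered by naive level, 2.23% by peak level and 11.7% per length. The share of lower genes there was 5.29%, 38.7% and 34.6% in that order, 25.9% with library totals and 27.6% with upper quartile scaling. In the highest bin, the share of higher genes was 4.04%, 15.1% and 19.4% in the same order, 6.55% with library totals and 6.06% with upper quartile scaling. The share of lower genes there was 2.23% by peak level, 4.74% with library totals and 5.85% with upper quartile scaling. Without small noncoding RNA rows, the 10 most abundant genes held 8.54% of naive and 8.85% of peak counts, and the 100 most abundant 25.2% and 24.7%.

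Of the 113 list medians, 110 stayed on the same side of a distance of 0.5 from the median of all genes after centring by length, a step chosen after seeing the data. With a minimum of 200 counts 105 did, 6 came within 0.5 and 1 moved past it. Nucleotide synthesis (0.465), actin and its regulators (0.4653) and forkhead factors (-0.3758) were among those that came within 0.5. A list left with fewer than 5 genes at that minimum was not read. Of 419 named genes past 2-fold, 14 no longer were with library totals, 22 with upper quartile scaling and 0 with DESeq2 size factors. Depth limits the lowest bin, where the median counting interval spanned 1.57 on the log2 scale.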
